A study of Bos taurus with 6 samples.

Results

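Cullins and the KLHL proteins build ubiquitin ligases, and the genes examined here are the 44 of the 47249 entries in the table of genes whose symbol begins with CUL or KLHL followed by a number, 8 cullins and 36 KLHL genes. The labels describe testis tissue of untreated Wandong cattle, 3 calves at 3 months (immature) and 3 bulls at 3 years (mature), with 1 library for each animal, sequenced after removal of ribosomal RNA. The value of a gene is its FPKM, a fragment count scaled by transcript length and library size, in which linear and circular RNA of the gene are not separated. No read counts were used, so the depth behind a value is unknown and the spread between animals serves as the error. Positions are those of the table. The Methods name the assembly UMD 3.1.1, whereas all 44 genes overlapped the RefSeq entry of the same symbol on ARS-UCD2.0, so the build of the positions was not settled.

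A cullin is a long scaffold that binds a RING protein at its C-terminal end and a substrate adaptor at its N-terminal end. CUL3 binds adaptors with a BTB domain, and most KLHL proteins are of this kind, with a BTB domain that holds CUL3 and a kelch propeller that holds the substrate. CUL1 works with SKP1 and F-box proteins, CUL4A and CUL4B with DDB1, and CUL2 and CUL5 with the elongins. In the testis, ubiquitin ligases act on the proteins that are replaced as germ cells pass through meiosis and form sperm, and KLHL10 is the member best known there, since it is made in spermatids and is required for male fertility in mice.

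The library labelled calf 3 stood apart from the other calves, and its label is in doubt. Of 10 marker genes of neural tissue, the summed FPKM reached 14094 in calf 3, whereas it stayed between 10.5 and 14.1 elsewhere. Of 7 Sertoli cell genes, 3 (WT1, FSHR and GATA4) had a listed value of 0 in calf 3, and AMH and INHA stood at 0.340 and 0.766. The others, SOX9 and CLU, stood at 13.7 and 423 in calf 3, lower than in the other calves but higher than in the bulls. INSL3, a defining product of Leydig cells, stood at 1349 and 1041 in the other calves and at 0.121 in calf 3. The bulls were rich in spermatid RNA, with a summed FPKM of 12 spermatid genes between 14464 and 16628 against 1.86 to 3.94 in the calves. The fits were therefore also run without calf 3, and the values without it are given beside the counts and most of the named genes. In whole tissue, fewer cells of a type and less RNA per cell cannot be told apart, and the part of this change in cell types in the results below was not tested.

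Bulls were compared with calves by a linear model of log2(FPKM + 1) fitted with limma (two-sided) on the 18115 genes that reached an FPKM of 1 in 3 or more libraries. A call required 2 things, a Benjamini-Hochberg adjusted p under 0.05 and a mean log2 difference between bulls and calves, termed the log2 fold change, whose size reached 1. All 8 cullins and 30 of the 36 KLHL genes passed the filter. KLHL10 and KLHL41 passed it through the bulls alone and KLHL29 through the calves alone, so a difference in these was built into their selection. Of the cullins, 3 were called higher and 1 lower in bulls, and of the KLHL genes 5 were called higher and 2 lower. Among all genes tested, 45.3% were called, 35.7% higher and 9.61% lower, to be read beside 5 higher and 2 lower of the 30 KLHL genes. The median log2 fold change was 0.33 for the cullins and −0.12 for the KLHL genes tested, against 0.43 for all genes. Without calf 3, 2 cullins were called higher and 1 lower, and 7 KLHL genes were called higher and 3 lower, beside 37.9% and 13.6% (51.5% together) of all genes.

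CUL3, the scaffold that KLHL proteins bind, and CUL1, the scaffold of the SCF ligases, had the highest mean FPKM of all members in bulls. CUL3 (ENSBTAG00000021769, chromosome 2, 112584475 to 112702718) stood at 35.1, 41.9 and 23.9 FPKM in calves 1, 2 and 3 and reached 162, 163 and 154 in bulls 1, 2 and 3. All bulls lay far above all calves, and calf 3 was the lowest library. This gave a log2 fold change of 2.25 (standard error, SE, = 0.23 and adjusted p = 0.000405, limma), and 2.03 (adjusted p = 1.62e-05) without calf 3. CUL1 (ENSBTAG00000008736, chromosome 4, 111931201 to 112019196) stood at 19.5, 25.4 and 20.9 FPKM in the calves against 151, 152 and 136 in the bulls. Here calf 3 lay between the other calves, and the groups did not overlap. In the fit its log2 fold change equalled 2.69 (SE = 0.16 and adjusted p = 5.13e-05), and 2.66 (adjusted p = 1.39e-05) without calf 3. Both genes were called higher under every alternative of scaling, filter and model and with each library left out in turn.

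CUL4A and CUL4B are close relatives that carry the same DDB1-based receptors. CUL4A (ENSBTAG00000020093, chromosome 12, 86545658 to 86572523) stood at 34.3, 39.6 and 22.6 FPKM in calves 1, 2 and 3 and reached 72.0, 65.7 and 63.9 in bulls 1, 2 and 3. It was called higher (log2 fold change 1.07, standard error 0.23, adjusted p = 0.00914, limma), but without calf 3, its lowest library, the log2 fold change of 0.85 (adjusted p = 0.000650) was under the size required. After quantile normalization of the libraries it was 0.30 (adjusted p = 0.350). CUL4B (ENSBTAG00000018569, chromosome X, 5084763 to 5130143) had 14.7, 22.9 and 8.58 in the calves and 21.9, 16.3 and 14.7 in the bulls, so the groups overlapped. The difference, as a log2 fold change, was 0.26 (95% interval −0.63 to 1.15, adjusted p = 0.567), and −0.08 without calf 3. The ratio of CUL4A to CUL4B does not change when all values of a library are multiplied by the same factor. This ratio was 2.33, 1.73 and 2.64 in the calves and 3.29, 4.04 and 4.34 in the bulls.

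**Figure D1:**
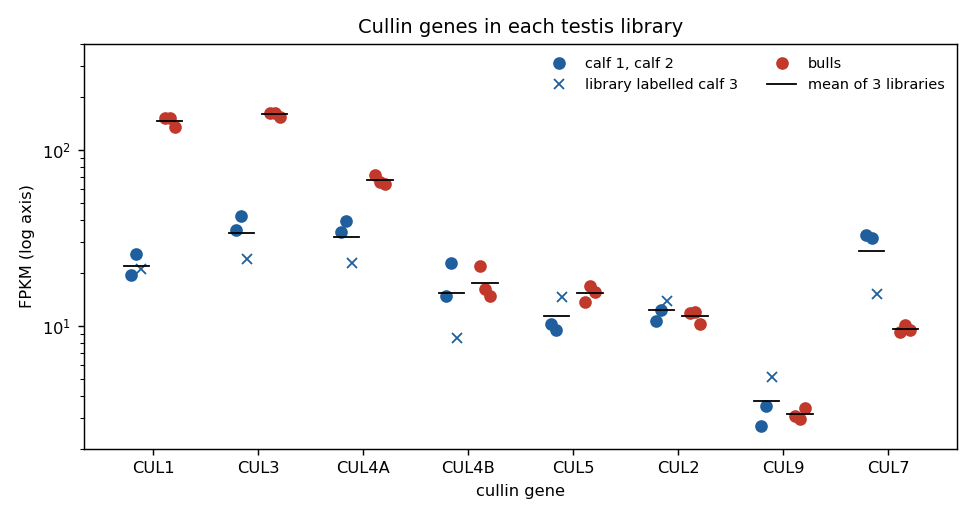
FPKM of the 8 cullin genes on a log axis, with calves in blue, the library labelled calf 3 as a cross, bulls in red and the mean of each group as a bar. CUL1, CUL3 and CUL4A lay higher in all bulls than in all calves, CUL7 lay lower, and the other 4 overlapped.

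CUL7, which forms a ligase with the F-box protein FBXW8 and in humans is mutated in a growth disorder, was the cullin called lower. CUL7 (ENSBTAG00000012749, chromosome 23, 16668580 to 16684135) stood at 32.8, 31.7 and 15.2 FPKM in calves 1, 2 and 3 but at 9.28, 10.1 and 9.51 in bulls 1, 2 and 3. Every bull was below every calf, and calf 3 lay between the other calves and the bulls. The log2 fold change came to −1.30 (SE = 0.31 and adjusted p = 0.0132, limma), and −1.65 (adjusted p = 3.10e-05) without calf 3. With bull 1 or bull 3 left out, the adjusted p was 0.0524 and 0.0505 at log2 fold changes of −1.28 and −1.29. MRPL2, whose locus overlaps that of CUL7, had values between 64.3 and 80.4 in bulls and between 7.06 and 15.3 in calves, the opposite direction. CUL9, the nearest relative of CUL7 and known to bind p53, starts 102168 bases beyond the end of CUL7. It had 2.68, 3.49 and 5.09 in the calves and 3.08, 2.97 and 3.43 in the bulls (log2 fold change −0.16, 95% interval −0.73 to 0.40, adjusted p = 0.577), and 0.03 without calf 3.

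CUL2 and CUL5 carry VHL and SOCS box receptors, respectively. CUL2 stood at 10.7, 12.3 and 13.8 FPKM in the calves against 11.8, 12.0 and 10.3 in the bulls, the smallest difference among the cullins (log2 fold change −0.10, 95% interval −0.50 to 0.30, adjusted p = 0.629, limma), and −0.02 without calf 3. CUL5 had 10.2, 9.42 and 14.6 in the calves and 13.6, 16.8 and 15.6 in the bulls. This gave a log2 fold change of 0.41 (95% interval −0.10 to 0.92, adjusted p = 0.140). Leaving calf 3 out gave 0.59 (adjusted p = 0.00635), which is under the size required.

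Because the sum of FPKM differed between the libraries, from 587066 in calf 3 to 1098715 in calf 2, the make-up of the cullin RNA within each library was also computed. The summed FPKM of the 8 cullins came to 160.0, 187 and 125 in calves 1 to 3 and to 445, 439 and 407 in bulls 1 to 3. CUL3 made up 21.9%, 22.4% and 19.1% of it in the calves and 36.4%, 37.1% and 37.8% in the bulls. CUL1 made up 12.2%, 13.6% and 16.8% in the calves and 34.0%, 34.7% and 33.3% in the bulls. Both shares were thus higher in every bull than in every calf. The share of CUL7 was 20.5%, 17.0% and 12.2% in the calves and between 2.09% and 2.34% in the bulls. The order of the cullins changed as well. In calf 1 and calf 2, CUL3, CUL4A and CUL7 led, each with between 17.0% and 22.4%, whereas in the bulls CUL3 and CUL1 came first, CUL4A followed, and CUL7 was lower than all others except CUL9. Between CUL3 and CUL1 the distance narrowed, from a ratio of 1.80 and 1.65 in calf 1 and calf 2 to between 1.07 and 1.14 in the bulls. In calf 3 it was 1.14.

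**Figure D2:**
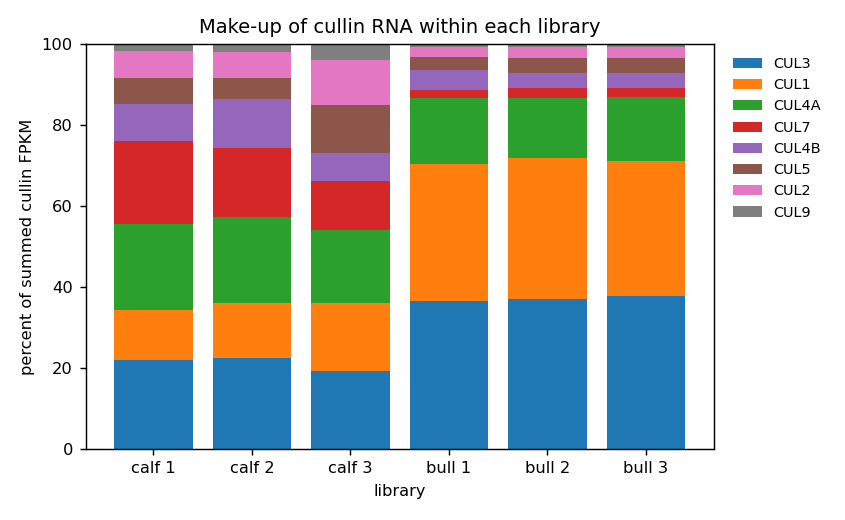
Percent of the summed cullin FPKM taken by each cullin in each of the 6 libraries, stacked to 100. CUL3 and CUL1 take larger shares in the 3 bulls than in any calf, and CUL7 falls from between 12.2% and 20.5% to between 2.09% and 2.34%.

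Among the KLHL genes, KLHL10 differed most. KLHL10 (ENSBTAG00000011459, chromosome 19, 42024526 to 42037110) stood at 0.0750, 0.164 and 0.0360 FPKM in calves 1, 2 and 3 and reached 135, 126 and 142 in bulls 1, 2 and 3. It was close to absent in every calf and the most abundant KLHL gene in every bull. Its log2 fold change was 6.95, with 6.92 without calf 3 and 5.95 after quantile normalization, and the addition of 1 to each value draws it toward 0. Because KLHL10 passed the filter through the bulls alone, no p is given for it. KLHL10 made up 36.0%, 33.6% and 37.5% of the summed FPKM of the KLHL genes in the bulls and at most 0.0638% in a calf. Its FPKM was 0.832, 0.774 and 0.925 of that of CUL3 in bulls 1 to 3, against at most 0.00393 in a calf. KLHL11, known as the target of autoantibodies in men with germ cell tumours, begins 2430 bases beyond KLHL10 and NT5C3B overlaps both. KLHL11 had 15.9, 14.5 and 21.0 in the calves and 21.7, 26.3 and 23.3 in the bulls. Its log2 fold change of 0.46 (95% interval 0 to 0.92, adjusted p = 0.0813, limma) was not called, nor was it without calf 3 (0.61, adjusted p = 0.00436). NT5C3B lay between 9.28 and 10.9 in calves and between 28.0 and 30.8 in bulls, so the very large difference was seen in KLHL10 and in neither of the genes beside it.

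KLHL41, which in skeletal muscle stabilises the thin filament protein nebulin, was the next. KLHL41 (ENSBTAG00000010741, chromosome 2, 26734655 to 26750934) stood at 0.565, 0.708 and 0.350 FPKM in the calves against 7.97, 9.20 and 9.27 in the bulls, without overlap. The difference, as a log2 fold change, was 2.67, and 2.58 without calf 3. No p is given, since KLHL41 passed the filter through the bulls alone and a rise was built into its selection. In the bulls, the muscle genes ACTA1 and CKM had at most 0.378 and 0.285, whereas MYLPF and TNNT1 lay between 4.70 and 6.62 and between 27.8 and 53.4. The summed FPKM of the 9 muscle genes was 34.2 to 61.3 in bulls and 6.73 to 33.1 in calves, most of it from TNNT1. The myosin genes MYH1 and MYH7 were lower in all bulls than in all calves, MYH2, MB and TNNT3 overlapped with lower means in bulls, and the myosin genes, MB and TNNT3 were at most 0.737 in any bull. Nebulin itself, NEB, which passed the filter through the bulls alone, had 0.749, 0.862 and 0.609 in the calves and 2.42, 3.93 and 4.26 in the bulls, a log2 fold change of 1.36 (1.31 without calf 3) that was 0.54 and not called after quantile normalization. KLHL40 and KLHL31, which also act in muscle, did not pass the filter. KLHL40 had 0.373, 0.505 and 0.251 in the calves and 0.337, 2.13 and 0.551 in the bulls, so bull 2 alone stood above 1, and KLHL31 lay between 0.0110 and 0.0680.

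KLHL12, KLHL32 and KLHL3 were the others called higher. KLHL12 (ENSBTAG00000009726, chromosome 16, 79888174 to 79913669), an adaptor for Dishevelled and for the coat protein SEC31, stood at 10.8, 11.5 and 8.01 FPKM in the calves against 32.0, 33.3 and 30.7 in the bulls. The log2 fold change came to 1.58 (SE = 0.17 and adjusted p = 0.000528, limma) and 1.44 without calf 3. KLHL32 (ENSBTAG00000005301, chromosome 9, 52625780 to 52842764) had 2.50, 2.87 and 4.13 in the calves and 11.1, 8.03 and 10.5 in the bulls. This gave a log2 fold change of 1.39 (SE = 0.23 and adjusted p = 0.00270), and 1.55 without calf 3. KLHL12 and KLHL32 kept their direction after quantile normalization but were under the size required, at 0.94 and 0.88.

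KLHL3 (ENSBTAG00000002796, chromosome 7, 49069108 to 49190970), which with CUL3 removes WNK kinases in the kidney, stood at 1.56, 1.45 and 3.07 FPKM in the calves against 5.49, 3.84 and 7.01 in the bulls. The groups were close but did not overlap. In the fit its log2 fold change equalled 1.10 (SE = 0.30 and adjusted p = 0.0212, limma), and 1.33 (adjusted p = 0.00235) without calf 3. The call was lost with calf 1, calf 2, bull 1 or bull 3 left out, at adjusted p between 0.0676 and 0.0739, and after quantile normalization (0.51, adjusted p = 0.190). MYOT, whose locus overlaps that of KLHL3, was at most 0.487 in calves and between 10.03 and 13.0 in bulls, the same direction. Whether reads of MYOT were counted for KLHL3 was not tested. KLHL2, the nearest relative of KLHL3, was not called (log2 fold change 0.28, 95% interval −0.33 to 0.89, adjusted p = 0.371), and not without calf 3 either (0.51, adjusted p = 0.0216). Its FPKM was 11.9, 14.4 and 21.6 in the calves and 16.6, 19.4 and 21.6 in the bulls.

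**Figure D3:**
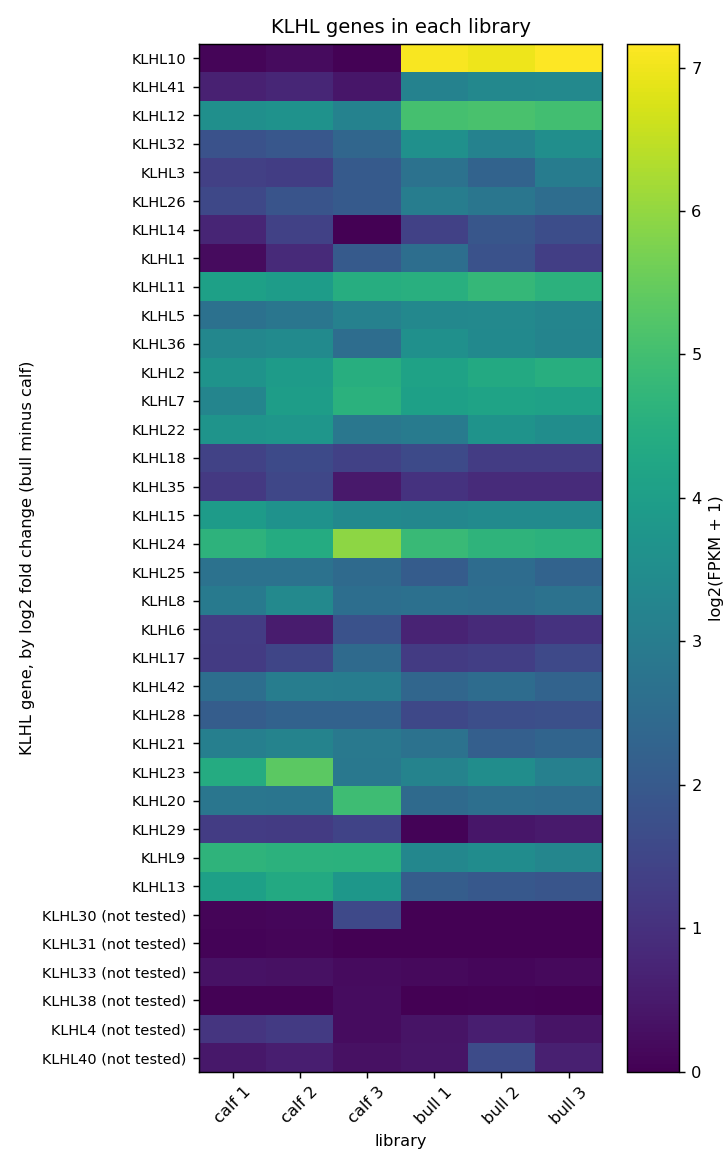
Level of the 36 KLHL genes as log2(FPKM + 1) in each of the 6 libraries, ordered by the log2 fold change (bull minus calf), with the 6 genes that were not tested at the bottom. KLHL10 is dark in all calves and brightest in all bulls, and KLHL20 and KLHL24 are brightest in calf 3.

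KLHL13 and KLHL9, close relatives that with CUL3 move Aurora B off the chromosomes in mitosis, were the KLHL genes called lower. KLHL13 (ENSBTAG00000000501, chromosome X, 2100820 to 2298436) stood at 15.9, 19.2 and 12.8 FPKM in the calves against 3.31, 2.92 and 2.70 in the bulls. The difference, as a log2 fold change, was −2.08 (SE = 0.20 and adjusted p = 0.000299, limma), and −2.22 without calf 3. KLHL9 (ENSBTAG00000012375, chromosome 8, 22874270 to 22876774) had 24.1, 23.1 and 22.7 in the calves and 8.90, 10.3 and 8.71 in the bulls. All calves, calf 3 included, lay within a narrow range. The log2 fold change came to −1.24 (SE = 0.14 and adjusted p = 0.000580), and −1.26 without calf 3. The ratio of KLHL13 to KLHL9 was 0.660, 0.833 and 0.563 in the calves and 0.372, 0.285 and 0.310 in the bulls. Whether reads that fit both of these relatives were split between them was not tested. KLHL21, the third adaptor of Aurora B, pointed the same way at a smaller size, with 7.51, 8.30 and 6.48 in the calves and 5.52, 3.47 and 3.94 in the bulls (log2 fold change −0.68, adjusted p = 0.0355, and −0.76 without calf 3), under the size required.

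The calls of 4 further members changed with calf 3. Without it, KLHL26 was called higher (log2 fold change 1.09, adjusted p = 0.00274, limma) from 0.99 with it, a difference of size only, since its values were 1.93, 2.65 and 3.05 in the calves and 7.18, 5.96 and 4.91 in the bulls. KLHL1, a gene known from neurons, had 0.150 and 0.812 in calf 1 and calf 2, 3.11 in calf 3 and 4.98, 2.46 and 1.503 in the bulls. It was called higher only in the fit without calf 3 (1.37, adjusted p = 0.0194, against 0.87, adjusted p = 0.225) and with array weights. KLHL23 had 20.2 and 39.9 in calf 1 and calf 2, 6.27 in calf 3 and 8.26, 10.4 and 7.66 in the bulls. It was called lower without calf 3 (−1.60, adjusted p = 0.00277) and not with it (−0.93, adjusted p = 0.245). In the table, the locus of KLHL23 (chromosome 2, 26554318 to 26621140) also covers or overlaps METTL5, PPIG, PHOSPHO2 and CCDC173. CCDC173 was higher in bulls (21.1 to 24.3 against 0.903 to 3.35 in calves) and PPIG lower (3.6 to 4.5 against 6.7 to 8.8). METTL5 overlapped between the groups, and PHOSPHO2 was at most 0.396. Their part in the values of KLHL23 was not tested. The fourth was CUL4A, described above.

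Of all 36 KLHL genes, 9 had their highest value in calf 3. Of all 44 members, 14 had their lowest value there, KLHL10, KLHL12, KLHL22, KLHL23 and CUL3 among them. The same counts over all genes were not made, so these are a description only. KLHL20, an adaptor for PML and the kinase DAPK, had an FPKM of 29.8 in calf 3 against 4.58 to 6.03 in the other libraries. KLHL24, which acts on keratin, had 60.2 in calf 3 against 20.2 to 27.7. KLHL17, an actin-binding protein of neurons, had 4.57 in calf 3 against 1.36 to 1.99, and KLHL30 had 2.015 against at most 0.0810. The neural marker genes were high in the same single library, and their part in these values was not tested. KLHL30 was not tested and the other 3 were not called, and the log2 fold change of KLHL20 went from −0.97 to −0.25 and that of KLHL24 from −0.29 to 0.18 when calf 3 was left out. In the bulls KLHL12 stood above KLHL24, and KLHL9 did so in calf 1 and calf 2.

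The other KLHL genes tested did not pass the threshold, and their log2 fold changes lay between −0.98 for KLHL29 and 0.96 for KLHL14. KLHL29 passed the filter through the calves alone, so a fall was built into its selection, and it was not called. It had 1.42, 1.37 and 1.74 in the calves and 0.0540, 0.343 and 0.427 in the bulls. KLHL28 (−0.54, adjusted p = 0.0271, limma) lay below all calves in all bulls in the same way. KLHL14, known to bind a torsin, was listed at 0 in calf 3 and had 0.677 and 1.61 in calf 1 and calf 2 and 1.60, 2.76 and 2.26 in the bulls. KLHL22, an adaptor for the mitotic kinase PLK1, had −0.04 (95% interval −0.85 to 0.76), and KLHL18, which acts on Aurora A, had −0.10 (95% interval −0.49 to 0.30). For KLHL7, which in humans is mutated in retinal degeneration, the value was 0.17 (95% interval −0.65 to 0.99). KLHL15, an adaptor for a regulatory subunit of the phosphatase PP2A, had −0.27, KLHL25, an adaptor for a translation inhibitor, −0.32, KLHL8 −0.32 and KLHL42, which acts on katanin, −0.49. KLHL5 had 0.43, KLHL36 0.31, KLHL35 −0.14 and KLHL6, a gene of B lymphocytes, −0.35. Without calf 3 none of these 14 was called, and their log2 fold changes lay between −0.92 for KLHL29 and 0.60 for KLHL14. The 6 KLHL genes that did not pass the filter were KLHL30, KLHL31, KLHL33, KLHL38, KLHL40 and KLHL4. KLHL33 and KLHL38 were at most 0.275 and 0.185 in any library, and KLHL4 had 1.17 and 1.34 in calf 1 and calf 2 and at most 0.521 elsewhere.

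Over the KLHL genes tested, all bulls lay above all calves in 8 and below all calves in 7, where the same held for 46.1% and 21.3% (67.4% together) of all genes. The direction of the weaker differences depended on the scaling. Quantile normalization moved the median log2 fold change of all genes from 0.43 to −0.26, and then 2 KLHL genes were called higher and 9 lower, beside 21.1% and 25.1% (46.2% together) of all genes. Of the 7 KLHL genes called without it, 4 were called in the same direction with it, namely KLHL10, KLHL41, KLHL9 and KLHL13. Of the 4 cullins, 3 were, all except CUL4A. A rise in KLHL10 and KLHL41 was built into their selection, since they passed the filter through the bulls alone. Relative to the median of all genes, the log2 fold change was 6.53 for KLHL10, 2.26 for CUL1, 2.25 for KLHL41, 1.82 for CUL3, 0.65 for CUL4A, −1.67 for KLHL9, −1.73 for CUL7 and −2.51 for KLHL13.

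**Figure D4:**
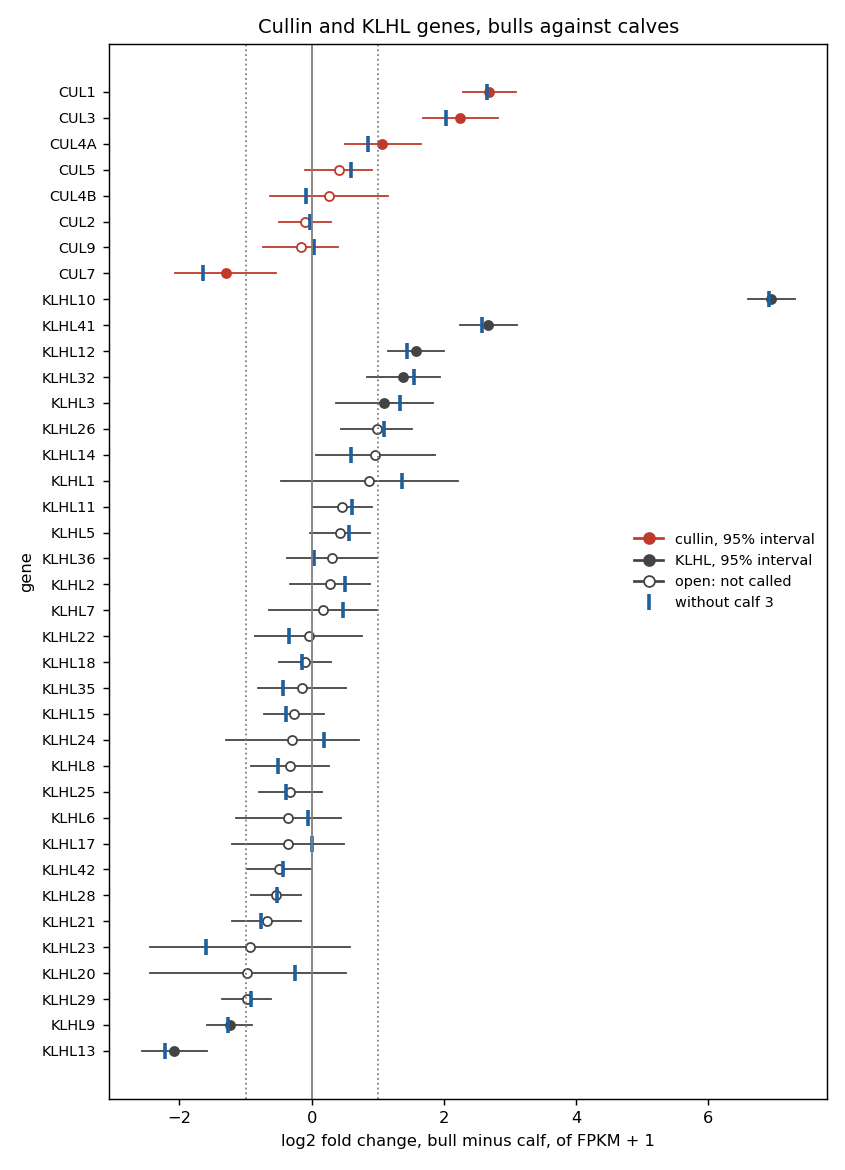
Log2 fold change (bull minus calf) of FPKM + 1 for the 38 members tested, with 95% intervals, cullins in red and KLHL genes in grey. Filled points were called, open points were not, blue ticks give the value without calf 3, and dotted lines mark the size required. KLHL10 lies at 6.95, far from all others, and the wide intervals of KLHL20 and KLHL23 go with large shifts when calf 3 is left out.

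The table of transcripts holds 135 entries for the 44 genes. The same fit on the 23212 transcripts tested included 55 of them, of which 10 were called higher and 5 lower in bulls, beside 34.8% and 9.37% (44.2% together) of all transcripts. Without calf 3, 11 were called higher and 6 lower, beside 36.1% and 13.1% (49.2% together). Of those called with calf 3, CUL1-201, CUL3-AS1, KLHL10-201 and KLHL41-201 had passed the filter through the bulls alone and KLHL13-201 and KLHL13-202 through the calves alone, so a difference in these was built into their selection and no p is given for them. The 4 genes whose tested entries differed most in log2 fold change were CUL3, CUL1, KLHL12 and KLHL13.

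In CUL1, both entries, CUL1-201 (ENSBTAT00000068449) and CUL1-202 (ENSBTAT00000011513), were called higher. CUL1-201 stood at 0.374, 0.630 and 0.0350 FPKM in the calves against 40.6, 69.6 and 34.4 in the bulls (log2 fold change 5.15, and 4.97 without calf 3). CUL1-202 had 19.2, 24.8 and 20.9 in the calves and 111, 82.5 and 101 in the bulls (2.13, adjusted p = 0.000245, limma, and 2.11 without calf 3). The share of CUL1-201 in the FPKM of the gene was 1.9%, 2.5% and 0.2% in the calves and 26.8%, 45.7% and 25.4% in the bulls. The positions of these entries differ by little, from 111931201 to 112019196 for CUL1-201 and from 111931406 to 112019124 for CUL1-202. In KLHL13, the entry that both groups carried past the filter, KLHL13-204, was called lower (−1.57, adjusted p = 0.000994, and −1.70 without calf 3). KLHL13-202 made up 21.2%, 30.8% and 25.2% of the gene in the calves and at most 0.8% in the bulls, whereas KLHL13-204 went from between 58.5% and 67.1% to between 89.5% and 91.2%.

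In CUL3, calf 3 was unlike all other libraries. CUL3-201 (ENSBTAT00000029018) made up 92.0% and 92.7% of the gene in calf 1 and calf 2 and between 95.2% and 97.0% in the bulls, but 29.8% in calf 3, where an assembled entry, TCONS_00169765, took 63.9%. CUL3-201 was called higher with calf 3 (log2 fold change 2.81, adjusted p = 0.00984, limma) and without it (2.08, adjusted p = 7.37e-05). The assembled entry was not called, at −0.47 (adjusted p = 0.560) and 0.26 without calf 3.

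In KLHL12, part of the rise of the gene came from an entry named as antisense. KLHL12-AS1 stood at 1.42, 1.66 and 1.31 FPKM in the calves against 10.8, 12.8 and 10.9 in the bulls (log2 fold change 2.35, adjusted p = 0.000129, limma, and 2.30 without calf 3). It held 13.1% to 16.3% of the value of the gene in calves and 33.9% to 38.6% in bulls. KLHL12-203 was called higher too (2.01, adjusted p = 0.00229), whereas KLHL12-201 (0.74, adjusted p = 0.0295) and KLHL12-202 (0.53, adjusted p = 0.149) were not called. Without calf 3 these values were 2.17, 0.62 and 0.28, with the same calls. With the antisense entry taken out, KLHL12 was at 9.40, 9.81 and 6.70 in the calves and at 21.1, 20.4 and 19.7 in the bulls, and its log2 fold change fell from 1.58 to 1.17 (adjusted p = 0.00227), still called. CUL3-AS1 had a log2 fold change of 1.35 (1.32 without calf 3, and 0.50 and not called after quantile normalization) but held at most 1.6% of its gene, and without it the log2 fold change of CUL3 was 2.24. The kit marks the strand, and whether the strand was used for the FPKM values is not stated in the sources used here.

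**Figure D5:**
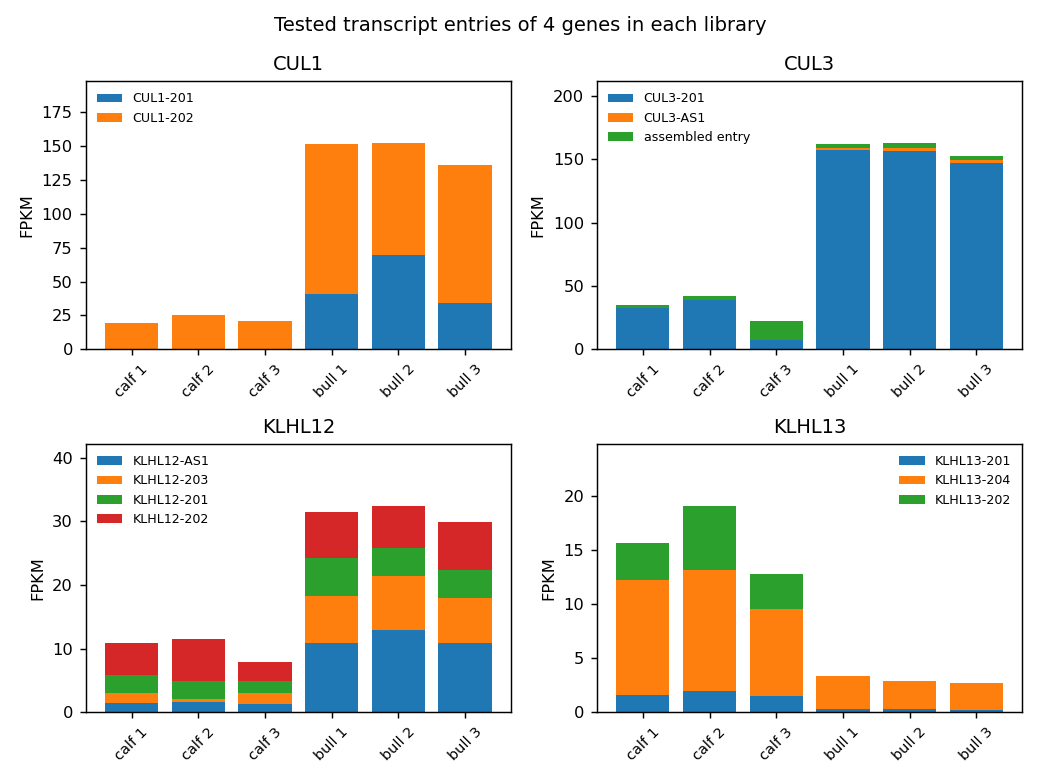
FPKM of the tested transcript entries of CUL1, CUL3, KLHL12 and KLHL13, stacked in each of the 6 libraries. CUL1-201 is visible in the bulls alone, KLHL12-AS1 grows from between 1.31 and 1.66 in calves to between 10.8 and 12.8 in bulls, and KLHL13-202 is present in the calves alone at this scale.

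The other parts of the cullin ligases were described by lists, whose counts stand beside 35.7% higher and 9.61% lower among all genes, and 37.9% and 13.6% without calf 3. Of 6 shared subunits, 1 was called higher and none lower, and without calf 3, 2 were called higher. ELOB, which links CUL2 and CUL5 to their receptors, stood at 157, 176 and 65.1 FPKM in the calves against 367, 331 and 325 in the bulls (log2 fold change 1.48, adjusted p = 0.0229, limma). Its call was lost when any bull was left out, at adjusted p between 0.0692 and 0.0808, and with upper quartile scaling (0.84, adjusted p = 0.136). Without calf 3 it was 1.03 and still called. The RING protein RBX1 and the adaptors SKP1 and DDB1 were not called.

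Cullins are switched on by attachment of NEDD8. Of the 13 genes found for this cycle and for the exchange of adaptors, 4 were called higher and 1 lower, beside 35.7% and 9.61% of all genes, and without calf 3, 5 and 1. DCUN1D1, a factor that helps NEDD8 onto cullins, went from 7.65, 7.76 and 7.84 in the calves to 197, 167 and 172 in the bulls (log2 fold change 4.36, adjusted p = 5.74e-06, limma, and 4.37 without calf 3). NAE1, a subunit of the NEDD8-activating enzyme, went from between 10.3 and 13.9 to between 41.0 and 44.95 (1.81, adjusted p = 0.000238, and 1.74 without calf 3). NEDD8 went the other way, from 39.0, 50.0 and 43.1 in the calves to 0.341, 0.267 and 0.352 in the bulls (−5.08, and −5.10 without calf 3). It passed the filter through the calves alone, so its difference was built into its selection. The transcript entries and overlapping loci of NEDD8 were not examined. Whether its RNA is counted under another entry in bulls was not tested. Of the 10 genes of the COP9 signalosome, which takes NEDD8 off again, 4 were called higher and none lower, with calf 3 and without it, near the 35.7% of all genes. COPS3 (1.80, adjusted p = 0.000308) and COPS5 (1.66, adjusted p = 0.000885), the latter the catalytic subunit, led, and COPS5 was under the size required after quantile normalization (0.89). Without calf 3 they were 1.87 and 1.84.

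Of 29 other BTB proteins tested, 3 were called higher and 3 lower, beside 35.7% and 9.61% of all genes, and without calf 3, 5 and 3. BTBD1 stood at 15.5, 17.9 and 27.6 FPKM in the calves against 142, 122 and 113 in the bulls (log2 fold change 2.61, adjusted p = 0.000279, limma), and KBTBD8, an adaptor in neural crest specification, had a log2 fold change of 1.43 (adjusted p = 0.00123) that was under the size required after quantile normalization (0.91). Lower were ENC1, a KLHL relative with 19.7, 18.1 and 13.1 in the calves and 3.54, 4.19 and 3.75 in the bulls (−1.88, adjusted p = 0.000457), and RHOBTB3 (−1.61, adjusted p = 0.00453). KEAP1, the KLHL relative that holds NFE2L2 in check, was called higher (1.10, adjusted p = 0.00835, but 0.42 and not called after quantile normalization), and its substrate NFE2L2 was called lower (−1.30, adjusted p = 0.000916). Whether the difference in KEAP1 RNA is linked to that in NFE2L2 RNA was not tested. Without calf 3 the values were 2.84 for BTBD1, 1.49 for KBTBD8, −2.05 for ENC1, −1.87 for RHOBTB3 and −1.32 for NFE2L2, and these and KEAP1 were still called.

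Of 62 receptors of the other cullins, 16 were called higher and 4 lower, beside 35.7% and 9.61% of all genes, and without calf 3, 16 and 1, beside 37.9% and 13.6%. ASB17, a SOCS box protein that passed the filter through the bulls alone, was listed at 0 in all calves and had 55.3, 61.5 and 75.3 in the bulls, and SOCS7 had 6.18, 6.72 and 6.77 in the calves and 74.0, 67.0 and 62.7 in the bulls (log2 fold change 3.19, adjusted p = 1.57e-05, limma, and 3.21 without calf 3). FBXO31 and SPSB1 were called lower (−1.19, adjusted p = 0.0369, and −1.18, adjusted p = 0.0165) but not without calf 3, where they were at −0.80 and −0.91. The call of FBXO31 was also lost without calf 2 or any bull (adjusted p between 0.0743 and 0.106), and that of SPSB1 without bull 1 or bull 2 (adjusted p = 0.0541 and 0.0671). Of 21 tested substrates and partners of KLHL proteins, 4 were called higher and 3 lower, beside 35.7% and 9.61% of all genes, and without calf 3, 4 and 4. The substrates AURKA and PLK1, mitotic and meiotic kinases, had log2 fold changes of 3.15 (adjusted p = 0.00116) and 3.11 (adjusted p = 0.000234), and of 2.67 and 2.87 without calf 3. PPP2R5B, the substrate of KLHL15, had 3.90, 3.44 and 30.7 in the calves and 0.692, 0.578 and 0.641 in the bulls (−2.43, and −1.51 without calf 3). It passed the filter through the calves alone, so a fall was built into its selection and no p is given for it. Its call was lost when any bull was left out.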

How the data were processed

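Total RNA of 6 testis samples, 1 library per animal, was sequenced. The authors, as their Methods state, filtered reads by quality and against ribosomal RNA with Bowtie2, used TopHat2 for mapping, and used StringTie for assembly. The authors deposited FPKM values per gene and per transcript. The Methods name Cuffdiff for levels of circular RNA, and the tool behind the gene and transcript values is not given in the sources used here. No counts were used, and the number of animals limits the precision.

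Groups came from the sample titles. Values were transformed to log2(FPKM + 1), features reaching an FPKM of 1 in 3 or more libraries were kept, and bulls were compared with calves in R 4.3.3 with limma 3.58.1 (empirical Bayes with trend, Benjamini-Hochberg adjustment over all features). Calls required an adjusted p under 0.05 together with a log2 fold change whose size reached 1. The fit was tested on simulated data. Figures were drawn with matplotlib 3.10.9. Members were all entries with a CUL or KLHL symbol followed by a number. The members and lists were chosen with earlier results of these data known. Genes given in full were all cullins, up to 8 KLHL genes called higher and up to 6 called lower (5 and 2 were called), KLHL10, the 3 KLHL genes of highest mean level, members whose call changed without calf 3, the 2 highest and 2 lowest called genes of each other list, and the 4 genes with the most divergent transcripts. KEAP1, NEB, the genes that overlap members and members outside these were named after their values were seen. Alternatives were another pseudocount (0.1), other filters, 3 other scalings, other models and leaving out each library. Marker lists of spermatocytes, spermatogonia, macrophages and endothelium were also summed (11.2 to 349, 98.3 to 267, 24.8 to 139.8 and 8.91 to 33.3 over the libraries). Promoter and protein sequences were not used here.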

Additional observations from a re-analysis of the deposited data

How the results depend on the processing

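With the replicate number as a block, 7 KLHL genes, 4 cullins, 8128 genes in all, 44 other ligase genes and 15 member transcripts were called, and no call of a named gene or transcript changed. Deviations from the group means correlated at 0.028, 0.025 and 0.034 in the same-numbered pairs. Other-numbered pairs were not compared and calf 3 stood apart, so these values do not settle whether the numbers pair the animals. Without the trend no such call changed, and a pseudocount of 0.1 changed that of KLHL26 alone (1.22). Gene values without antisense entries, an alternative chosen after seeing the data, left 7 KLHL genes and 4 cullins called. Of the 49 named genes and transcripts, 39 kept their direction and their side of the threshold without calf 3, with array weights and with quantile normalization, 40 with upper quartile scaling and 43 after rescaling to a common total. Quantile normalization gave 11 KLHL genes called (2 higher, 9 lower) and upper quartile scaling 8 (2 higher, 6 lower). The other ligase genes went from 32 higher and 11 lower to 14 and 36 with quantile normalization and to 16 and 28 with upper quartile scaling, the member transcripts from 10 and 5 to 7 and 12 and to 8 and 9, and all genes from 6474 and 1741 to 3827 and 4538 and to 5073 and 3701. With rescaling to a common total, all genes gave 7468 higher and 1183 lower. A filter at an FPKM of 5 called 5056 genes of 10883 tested, a smaller set by construction. With a library left out, the KLHL genes called numbered 6 to 10, the cullins 3 to 4, all genes 7318 to 9325, other ligase genes 35 to 45 and member transcripts 13 to 17.

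Signs changed for differences that were not called: CUL5 (−0.15 with quantile, −0.18 with upper quartile scaling), CUL4B (−0.35, −0.34, −0.06 with array weights and −0.08 without calf 3), CUL2 (0.10 after rescaling to a common total), CUL9 (0.02 with array weights, 0.03 without calf 3), KLHL24 (0.14, 0.18), TCONS_00169765 (0.22, 0.26) and KLHL12-202 (−0.03 with quantile and with upper quartile scaling). With each library left out in turn, KLHL24 ranged from −0.58 to 0.18, CUL4B from −0.08 to 0.58, CUL9 from −0.33 to 0.03 and TCONS_00169765 from −0.86 to 0.26. The cause was not tested.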

Other observations

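Of the 62 receptors of the other cullins tested, 16 were called higher in bulls, beside 35.7% of all genes, and 10 of these are given here. Of the DDB1-bound receptors of CUL4A and CUL4B, DTL (log2 fold change 2.50, adjusted p = 0.0105, limma), which acts at replicating DNA, DCAF15 (2.33, adjusted p = 0.00586), DCAF6 (1.51, adjusted p = 0.000293), DCAF5 (1.22, adjusted p = 0.00481) and DCAF1 (1.15, adjusted p = 0.00682) were called. DCAF6, DCAF5 and DCAF1 were not called after quantile normalization (0.77, 0.55 and 0.60), and DCAF1 was at 0.93 without calf 3 and no longer called. DTL was at 0.159 in calf 3, 3.53 and 3.61 in calf 1 and calf 2 and between 14.7 and 16.3 in the bulls. Of the receptors of CUL2, which read the ends of proteins, KLHDC3 stood at 15.5, 16.5 and 38.0 FPKM in the calves against 140.1, 119 and 131 in the bulls (2.55, adjusted p = 0.00143). FEM1A (2.01, adjusted p = 0.000238), ZER1 (1.84, adjusted p = 0.00134) and KLHDC10 (1.74, adjusted p = 0.000167, but not called after quantile normalization) were called higher too, although CUL2 itself was not. Of the F-box proteins, BTRC, the receptor for beta-catenin, was called higher (1.65, adjusted p = 0.0172, and 1.04, adjusted p = 0.0776, after quantile normalization) with 4.34, 6.32 and 15.5 in the calves and 26.8, 24.3 and 27.3 in the bulls. Without calf 3 the log2 fold changes were 1.84 for DTL, 1.81 for DCAF15, 2.95 for KLHDC3, 2.04 for FEM1A, 2.09 for ZER1, 1.72 for KLHDC10 and 2.12 for BTRC, and these, DCAF6 and DCAF5 were still called. These genes were named after their values were seen, and others of the same kinds, such as DCAF11 (0.83), DCAF12 (0.48), FEM1C (0.50) and FBXL5 (0.54), were not called. Of these, DCAF11 (1.06) and FEM1C (1.04) were called higher without calf 3.

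Without calf 3, RNF7 (1.21), the RING protein that works with CUL5, and UBE2F (1.25), the NEDD8-conjugating enzyme for CUL5, were called higher, from 0.76 and 0.81 with it. In calf 3 they stood at 28.3 and 28.2, against 9.54 to 11.9 in calf 1 and calf 2.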
